A study of Mus musculus and Homo sapiens with 10 samples.

Results

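The 10 antioxidant response genes described here were *Nfe2l2*, *Keap1*, *Hmox1*, *Nqo1*, *Gclm*, *Gclc*, *Txnrd1*, *Srxn1*, *Gsr* and *Prdx1*. They were chosen by gene symbol and not by a cut on measured values, although earlier results of these data were known. All 10 were found among the 25899 genes of the mouse table and, under their upper-case symbols, among the 35720 genes of the human table. The study asked what vitamin C (vitC, ascorbate) does to gene and repeat expression in embryonic stem cells. The mouse data were 8 RNA-seq libraries of E14, an established mouse embryonic stem cell (mESC) line, 4 from control and 4 from vitC-treated cultures, all grown in 2i medium with LIF, the inhibitors PD-035901 and CHIR-99021 and beta-mercaptoethanol, a reducing agent. Treated cultures received 100 µg/ml vitC over 24 h, and controls were untreated. Each control shared its culture label (10, 11, 35B or 35C) with 1 vitC-treated culture. For human embryonic stem cells (hESCs) there was 1 control and 1 vitC-treated library, which the labels give as H9, an established line, in KSR/FGF medium with 2-mercaptoethanol. The study's methods give this medium to H9-NK2, a derivative of H9 with doxycycline-inducible *KLF2* and *NANOG* transgenes, and fibroblast-conditioned medium to H9 itself, so which of the lines and media these libraries came from is not settled here. Each species is represented by a single line in the labels, and beyond the culture labels nothing says how separate the mESC cultures were, so p-values measure only the spread between these samples.

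NRF2, the protein encoded by *Nfe2l2*, is a transcription factor that is held at low levels by KEAP1, an adaptor which marks it for degradation. Oxidants and electrophiles modify cysteines of KEAP1, after which NRF2 accumulates, pairs with small MAF proteins and binds antioxidant response elements near genes of glutathione synthesis, thioredoxin recycling, quinone reduction and heme breakdown. VitC is itself a reductant that can scavenge oxidants, and it keeps the iron of 2-oxoglutarate-dependent dioxygenases in its reduced form. Much of the control of NRF2 acts on the protein, which RNA-seq does not measure.

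The core of the antioxidant response element, TGACNNNGC, was looked for on both strands of RefSeq promoters (GRCm38.p6, from 250 bases before to 50 bases after each start). Of the 10 genes, 7 had a promoter in this set, and 5 of these 7 (71.4%) held a match, against 14.0% of all genes with a promoter there, 16.8% of the tested genes and 24.1% of 58 other genes of the pathway. *Keap1* and *Nqo1* had no match in these windows, and *Hmox1*, *Gclc* and *Gsr* had no promoter in the set. The genes were chosen as NRF2 and its usual targets, and NRF2 binds this element, so the higher share is not independent of that choice. The matched stretches of the 5 genes are shown as a description only. Each is written 5′ to 3′ on the strand of the gene, and capitals mark the match, which lies on the other strand in all but *Nfe2l2*.
Nfe2l2, chr2:75704865-75704913, minus strand: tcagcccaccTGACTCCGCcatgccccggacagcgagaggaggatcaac
Gclm, chr3:122245393-122245461, plus strand: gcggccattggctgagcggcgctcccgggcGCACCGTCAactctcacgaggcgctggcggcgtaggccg
Txnrd1, chr10:82859084-82859152, plus strand: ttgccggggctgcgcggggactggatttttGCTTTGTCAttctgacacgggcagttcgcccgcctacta
Srxn1, chr2:152105522-152105573, plus strand: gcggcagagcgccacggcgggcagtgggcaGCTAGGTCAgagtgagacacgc
Prdx1, chr4:116685436-116685504, plus strand: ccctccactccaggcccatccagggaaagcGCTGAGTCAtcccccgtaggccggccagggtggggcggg
The *Prdx1* match, TGACTCAGC, contains the letters of the AP-1 motif TGACTCA, and the other 4 matches do not. Of the 3 *Txnrd1* promoters in the set, the match was in the second. A match is a description of these letters and not evidence of binding.

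Sequencing depth was modest for the mESCs, with 3354852 to 6921305 reads assigned to genes per library, and higher for the hESCs, with 15367652 reads in the control and 17188555 in the vitC-treated library. The mESC libraries carried the markers of naive pluripotency at a summed 26531 to 28871 normalised reads in controls and 25896 to 29187 with vitC, where a normalised read count is the number of reads divided by the size factor of the library. The sum hides opposite changes, since in the fit paired by culture label 1 of the 8 markers was higher with vitC (*Tfcp2l1*, difference 0.11, limma adjusted p = 0.0231) and 3 were lower (*Nanog*, -0.25, 0.000647; *Pou5f1*, -0.12, 0.0221; *Zfp42*, -0.13, 0.0356). The part of these changes in the vitC differences of the 10 genes was not tested. Of the 10 markers of primed or early lineage cells, 6 were under 10 normalised reads in every library, and the list summed to 268 to 343 in controls and 286 to 326 with vitC. The 6 fibroblast markers summed to 33.7 to 88.3 in controls and 56.4 to 74.8 with vitC, and *Dcn* had no read in any mESC library. Ribosomal RNA made up 42.0 to 63.1% of the repeat counts, falling with vitC in cultures 10 and 11 and rising in 35B and 35C. In bulk RNA, fewer cells expressing a gene and less RNA per cell cannot be told apart.

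Levels per length placed *Prdx1* first and *Keap1* last among the 10 genes in control mESCs. In RPKM, which scales reads to the exon length of the gene and to the gene reads of the library, *Prdx1*, a peroxiredoxin that reduces hydrogen peroxide, stood at 198 ± 26.6 (SD, n = 4). It was followed by *Nqo1* at 88.5 ± 22.8, *Gsr* at 83.3 ± 0.84 and *Txnrd1* at 71.9 ± 4.41 RPKM. Next came *Gclm* at 47.0 ± 5.16, *Nfe2l2* at 31.6 ± 2.76, *Srxn1* at 28.1 ± 3.26 and *Hmox1* at 26.7 ± 3.55 RPKM. *Gclc* at 21.4 ± 5.83 and *Keap1* at 10.9 ± 0.85 RPKM were the lowest. The control range of *Nqo1* held those of *Gsr* and *Txnrd1*, so its place beside them was not resolved. The ranges of each neighbouring pair from *Nfe2l2* down to *Gclc* overlapped, so the order within these pairs was not resolved either. The ranges of *Gsr* (82.4 to 84.1 RPKM) and *Txnrd1* (65.5 to 75.6) did not overlap. Nor did those of *Nfe2l2* (28.1 to 33.9) and *Gclc* (15.8 to 27.2).

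Without a culture term, none of the 10 genes passed the test of vitC-treated against control mESCs. limma on the deposited variance-stabilised values, a log2-like scale that compresses differences of weakly expressed genes, gave adjusted p-values from 0.770 to 0.993 for the 10 genes. No member was past 0.05 before adjustment, edgeR and DESeq2 on whole reads, recovered by inverting the transformation, also gave 0 of 10 at either level, and the control and vitC ranges overlapped for all 10, whereas they did not overlap for 5.28% of all tested genes. In this fit 0.342% of the 14631 tested genes (50 genes) were past an adjusted p of 0.05.

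When each vitC-treated culture was set against the control with the same culture label, 3 of the 10 genes were higher with vitC. These were *Gclc*, *Nqo1* and *Txnrd1*, and none of the 10 was lower past the threshold in limma, edgeR or DESeq2. At an unadjusted p under 0.05, limma had 4 of the 10 higher and 1 lower, beside 13.4% and 11.7% of all tested genes. At the adjusted threshold, 6.36% of all tested genes were called higher and 4.44% lower in this paired fit. The median difference over the 10 genes was 0.08 and 9 of the 10 differences were above 0, beside a median of -0.0020 over all tested genes, of which 7171 were above 0.

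**Figure D1:**
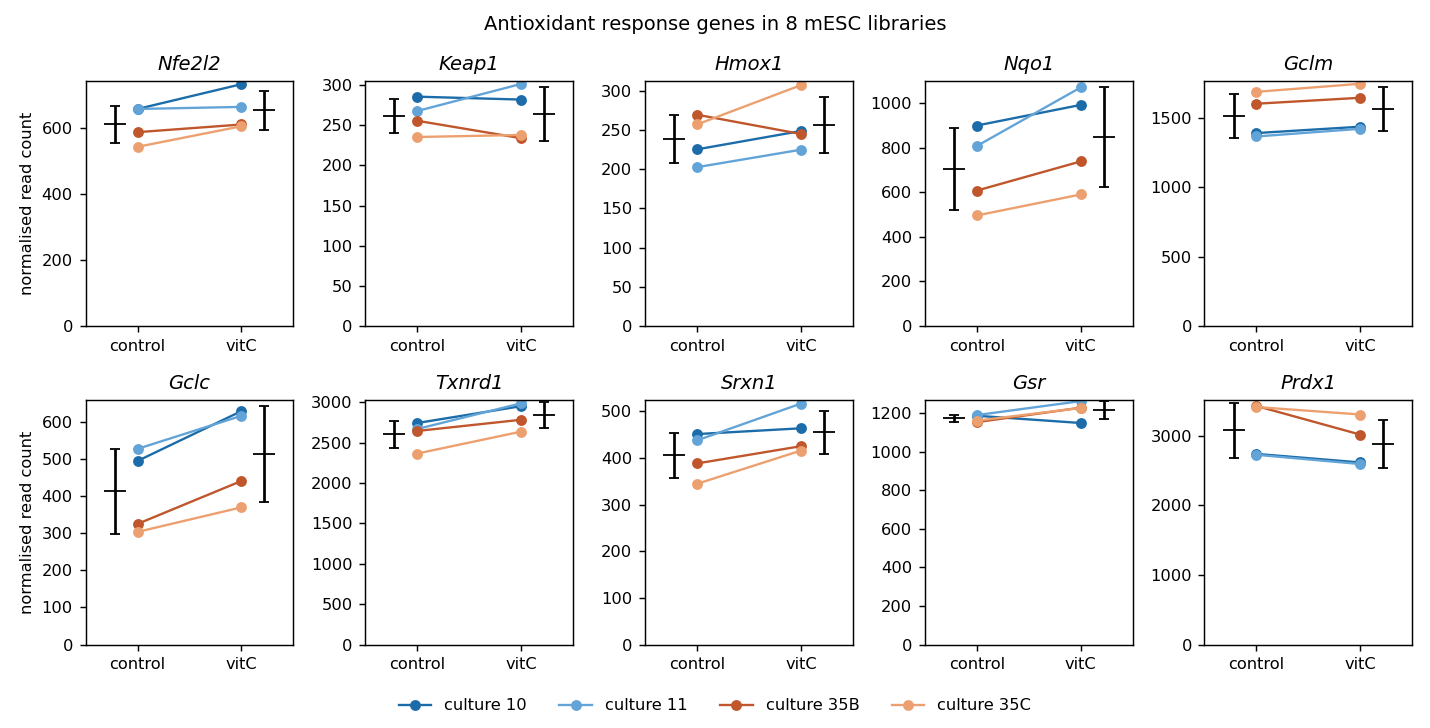
Normalised read counts (y axis, from 0) of the 10 antioxidant response genes in control and vitC-treated mESCs. Each point is 1 library, lines join libraries with the same culture label, and the black bars give the group mean ± SD (n = 4). *Gclc* and *Nqo1* rose along every line, while for both genes the lines of cultures 35B and 35C lay below those of 10 and 11.

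Neither *Nfe2l2* nor *Keap1*, the 2 regulators among the 10 genes, was called. *Nfe2l2* stood at 658, 659, 588 and 544 normalised reads in controls 10, 11, 35B and 35C, and at 734, 665, 611 and 606 in the matching vitC-treated cultures. Thus it was higher with vitC in 4 of 4 pairs, but in culture 11 by only 0.01 on the log2 scale. The paired difference was 0.08 (95% interval -0.01 to 0.17) and did not pass the test (limma adjusted p = 0.243). *Keap1* stood at 286, 268, 256 and 235 in controls and at 282, 302, 234 and 238 with vitC, with 2 pairs higher and 2 lower. Its difference was 0.01 (95% interval -0.09 to 0.11), and the sign turned under several other settings. The log2 ratio of *Nfe2l2* to *Keap1* reads within a library was 1.23 ± 0.05 in controls and 1.31 ± 0.12 with vitC (SD, n = 4), higher in 3 of 4 pairs. An exact two-sided permutation test over 70 labellings gave p = 0.229 (0.457 adjusted over the 2 ratios tested).

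Glutathione synthesis begins with glutamate-cysteine ligase, formed by the catalytic subunit GCLC and the modifier subunit GCLM. *Gclc* (chr9:77754535-77794485 in GRCm38, plus strand) stood at 494, 527, 325 and 303 normalised reads in controls 10, 11, 35B and 35C, and at 628, 616, 440.3 and 369 with vitC. It was higher with vitC in 4 of 4 pairs, although both vitC-treated cultures of the 35 labels stayed below both controls of 10 and 11. The paired difference of 0.25 (standard error 0.04, 95% interval 0.16 to 0.34) passed the test (limma adjusted p = 0.000805). On reads, edgeR with the culture term gave a 1.24-fold higher level (log2 fold change 0.31, standard error 0.06, adjusted p = 0.000511). *Gclm*, in contrast, stood at 1389, 1365, 1601 and 1686 in controls and at 1435, 1420.1, 1643 and 1744 with vitC. The modifier subunit was thus higher in 4 of 4 pairs by a small and even step of 0.04 to 0.06 on the log2 scale, and its paired difference of 0.04 (95% interval -0.03 to 0.12) was not past the threshold (limma adjusted p = 0.471). Its exons overlap those of *Gm6061* on the same strand, so its counts are less certain.

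Within each library, the log2 ratio of *Gclm* to *Gclc* reads was 1.49, 1.37, 2.30 and 2.47 in controls 10, 11, 35B and 35C, and 1.19, 1.21, 1.90 and 2.24 with vitC. The ratio fell in 4 of 4 pairs, by 0.28 on average, while the cultures themselves differed by more than this. Without pairing, the difference ran from -0.09 without the control of 35C to -0.48 without the vitC-treated library of 35C. The exact permutation test without pairing gave p = 0.486 (two-sided, 0.486 after adjustment over 2 ratios), and an exact sign-flip test over the 4 pairs gave p = 0.125, which is the smallest value that 4 pairs allow.

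*Gsr* encodes glutathione reductase, which returns oxidised glutathione to its reduced form. It was the steadiest of the 10 genes across the controls, at 1186, 1189, 1153 and 1160.2 normalised reads, and stood at 1148, 1262, 1228 and 1226 with vitC. The vitC-treated library was higher in 3 of 4 pairs, and the difference of 0.05 (95% interval -0.03 to 0.13) did not pass the test (limma adjusted p = 0.477).

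Of the thioredoxin genes among the 10, the called one was *Txnrd1*, the cytosolic thioredoxin reductase (chr10:82833951-82897712 in GRCm38, plus strand). *Txnrd1* stood at 2742, 2668, 2643 and 2364 normalised reads in controls and at 2951, 2986, 2782 and 2636 with vitC. All 4 pairs rose, and the paired difference was 0.12 (standard error 0.03, 95% interval 0.05 to 0.19, limma adjusted p = 0.0241). edgeR with the culture term gave a 1.09-fold higher level (adjusted p = 0.0205), but DESeq2 with the same term did not call it (adjusted p = 0.105). The call was also lost without culture 11 (limma adjusted p = 0.103) or without culture 35C (0.135).

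*Srxn1* encodes sulfiredoxin, which repairs overoxidised peroxiredoxins. It stood at 451, 437, 388 and 344 normalised reads in controls and at 463, 516, 425 and 416 with vitC. The vitC-treated library was higher in 4 of 4 pairs, and the difference of 0.13 (95% interval 0.04 to 0.23) lay just outside the threshold in limma (adjusted p = 0.0657) and edgeR (adjusted p = 0.0548). *Prdx1*, a substrate of sulfiredoxin, was the only member lower in 4 of 4 pairs. It stood at 2741, 2728, 3431 and 3415 in controls and at 2618, 2595, 3018 and 3308 with vitC, a difference of -0.09 (95% interval -0.16 to -0.02) that was not past the threshold (limma adjusted p = 0.101).

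*Nqo1* and *Hmox1* encode cytoprotective enzymes outside the thiol systems. *Nqo1*, a quinone reductase that spends NAD(P)H (chr8:107388225-107403206 in GRCm38, minus strand), stood at 899, 807, 607 and 496 normalised reads in controls 10, 11, 35B and 35C, and at 992, 1070.2, 738 and 590.0 with vitC. Each pair rose, by 0.14, 0.41, 0.28 and 0.25 on the log2 scale. The group means were 702 ± 184 and 848 ± 223 (SD, n = 4), so that the spread among cultures within a condition exceeded the step with vitC. The paired difference was 0.23 (standard error 0.04, 95% interval 0.14 to 0.32, limma adjusted p = 0.00163), and edgeR gave a 1.21-fold higher level (adjusted p = 0.000832). *Hmox1*, heme oxygenase 1, stood at 225, 202, 269 and 257 in controls and at 248, 225, 245 and 307 with vitC. It was higher in 3 of 4 pairs and lower in culture 35B, with a difference of 0.07 (95% interval -0.04 to 0.18, limma adjusted p = 0.423).

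**Figure D2:**
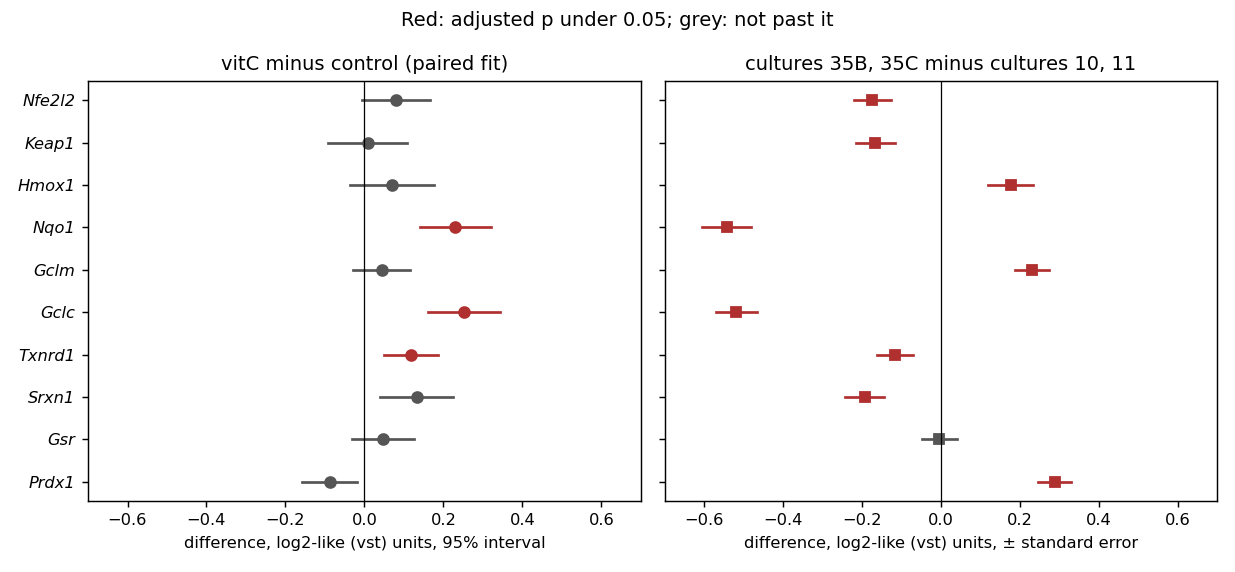
Differences of the 10 genes in mESCs on the log2-like variance-stabilised scale (x axis), with vitC minus control in the paired fit on the left (bars, 95% interval) and cultures 35B and 35C minus cultures 10 and 11 on the right (bars, standard error). Red points are past an adjusted p of 0.05, which holds for *Nqo1*, *Gclc* and *Txnrd1* on the left and for 9 of the 10 genes on the right.

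The larger differences of most of the 10 genes were between culture labels. Their median absolute difference between cultures 35B and 35C and cultures 10 and 11 was 0.19, against 0.08 for vitC, and over all tested genes these medians were 0.12 and 0.06. A limma fit with culture set and treatment called 9 of the 10 genes, all but *Gsr*, where 40.5% of all tested genes were called. *Nqo1* (difference -0.54, standard error 0.06, limma adjusted p = 1.6e-06) and *Gclc* (-0.52, standard error 0.05, limma adjusted p = 2.6e-07) were lower in the 35 cultures, as were *Srxn1* (-0.19), *Nfe2l2* (-0.17), *Keap1* (-0.17) and *Txnrd1* (-0.12). *Prdx1* (0.29), *Gclm* (0.23) and *Hmox1* (0.18) were higher. For 7 of the 10 genes the libraries of the 2 sets did not overlap, as for 32.1% of all tested genes. This fit counts the control and the vitC-treated library of a culture separately, so its p-values are too small for 2 cultures against 2. The labels do not say in what the culture sets differ. Ribosomal RNA was 42.0 to 51.5% of repeat counts in cultures 10 and 11 and 60.0 to 63.1% in 35B and 35C, and the sets also differed in markers of cell state. Of the naive markers tested, 5 of 8 were called between the sets, with 2 higher in 35B and 35C and 3 lower. Among them were *Pou5f1* (0.42 higher in 35B and 35C) and *Sox2* (-0.35). Of the lineage markers tested, 4 of 9 were called, near the 40.5% of all tested genes. Of these 4, 3 were higher in 35B and 35C and 1, *T*, was lower. *T* stood at 78.9 to 97.5 normalised reads in cultures 10 and 11 and 4.31 to 10.7 in 35B and 35C (difference -1.11, limma adjusted p = 2.93e-10), and *Otx2* at 12.5 to 32.7 and 57.7 to 99.1 (0.67, limma adjusted p = 3.98e-06). Of the fibroblast markers tested, 3 of 4 were called, with 1 higher in 35B and 35C and 2 lower. The part of the ribosomal share and of these markers in the differences of the 10 genes was not tested.

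For *Nfe2l2*, *Keap1*, *Nqo1*, *Gclc* and *Srxn1*, both vitC-treated libraries of the 35 cultures lay below both untreated libraries of cultures 10 and 11. The share of all tested genes in such an order was not counted. Since the sets did not overlap for 32.1% of them, the order is not shown to be particular to these genes. Whether the response to vitC itself differed between the sets was tested with an interaction term. limma called none of the 10 genes and 0% of all tested genes (601 genes at an unadjusted p under 0.05, and 0 genes called by edgeR with 415 at that level), and the smallest unadjusted p among the 10 was 0.366. With the culture term added, limma called 13 genes of the table and none of the 10. In that fit the 95% intervals of the interaction were -0.20 to 0.15 for *Nqo1* and -0.14 to 0.22 for *Gclc*, beside vitC differences of 0.23 and 0.25, and -0.15 to 0.12 for *Txnrd1*, beside 0.12.

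Around the 10 genes, 65 other genes of the pathway were examined, of which 63 were expressed above the filter. Without the culture term none was called by limma, edgeR or DESeq2, and in limma 8 of the 63 were at an unadjusted p under 0.05, where 7.65% of all tested genes were. In the paired fit 10 were higher and 2 lower with vitC, where 6.36% and 4.44% of all tested genes were. These shares also stand beside the counts by group below. Each of the called genes moved the same way in 4 of 4 pairs, which adds little to a call from these same pairs. edgeR with the culture term gave the same counts, and DESeq2 with it called 4 higher (*Prdx6*, *Pgd*, *Abcc4* and *Bach1*) and 0 lower. The other 8 calls below, of *Mafg*, *Nfe2l1*, *Txnrd3*, *Ftl1*, *Fth1*, *Ugdh*, *Ephx1* and *Glrx3*, were thus lost there (DESeq2 adjusted p from 0.130 for *Ftl1* to 0.449 for *Ephx1*). Over all tested genes, DESeq2 with this term also called fewer, 329 higher and 143 lower of 14068. By comparison, limma called 931 and 650 of 14631, and edgeR 977 and 750 of 11927. The median difference over the 63 genes was 0.0040, with 34 above 0.

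**Figure D3:**
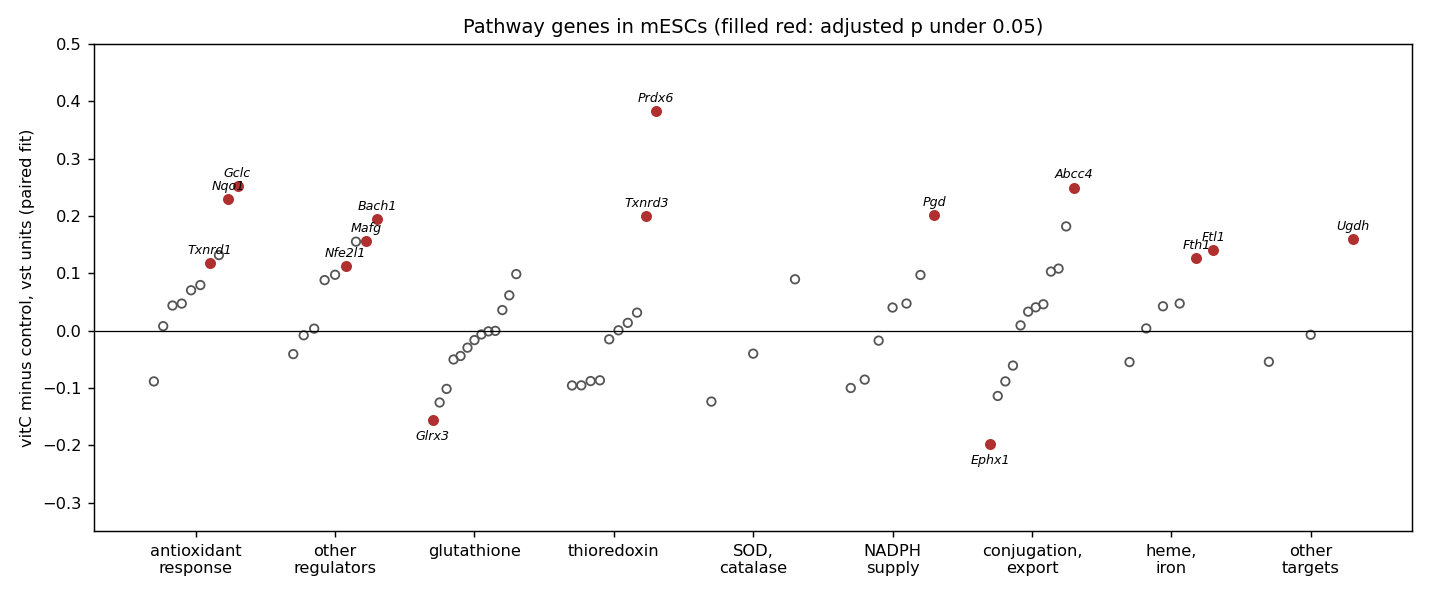
Paired vitC minus control differences (y axis, log2-like variance-stabilised units) of the 10 antioxidant response genes and 63 other pathway genes in mESCs, ordered by size within functional groups (x axis). Filled red points are past an adjusted p of 0.05, and these are 3 of the 10 genes, 10 pathway genes above 0 and 2 below.

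Of the 9 other regulators, 3 were higher. *Bach1*, a repressor that competes with NRF2 for its sites, stood at 696 to 785 normalised reads in controls and 829 to 932 with vitC, without overlap (difference 0.19, limma adjusted p = 0.00322). *Mafg*, a small MAF partner shared by both factors, stood at 666 to 869 and 847 to 958 (difference 0.16, limma adjusted p = 0.0241). The third, *Nfe2l1*, encodes the related factor NRF1 (difference 0.11, limma adjusted p = 0.0397). It and *Fth1* below were outside the rule for named genes and are named after their values were seen.

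Among the 10 other genes of the thioredoxin and peroxiredoxin system, 2 were higher. *Prdx6*, a peroxiredoxin that takes its electrons from glutathione, had the largest difference of the pathway at 0.38 (95% interval 0.30 to 0.47, limma adjusted p = 2.4e-06). It stood at 585, 503, 751 and 702 normalised reads in controls and at 813, 721, 1007 and 917 with vitC, so that every pair rose, in the opposite direction to *Prdx1*. *Txnrd3*, a thioredoxin reductase best known from testis, was weakly expressed and stood at 71.4 to 74.7 normalised reads in controls and 87.2 to 114 with vitC (difference 0.20, limma adjusted p = 0.0198).

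The remaining calls were spread over several groups. *Pgd*, an NADPH-producing enzyme of the pentose phosphate pathway, was the only one of 7 NADPH genes called, at 2063 to 2222 normalised reads in controls and 2395 to 2582 with vitC (difference 0.20, limma adjusted p = 0.00043). Of 12 conjugation and export genes, the exporter *Abcc4* was higher (0.25, limma adjusted p = 0.000672) and the epoxide hydrolase *Ephx1* lower (-0.20, limma adjusted p = 0.0341), the latter at only 42.8 to 153 normalised reads. Of 6 heme and iron genes, those for the ferritin chains, *Ftl1* (0.14, limma adjusted p = 0.0149) and *Fth1* (0.13, limma adjusted p = 0.0237), were higher, and both have near-identical pseudogene copies that could share reads. *Ugdh*, which makes UDP-glucuronic acid, was higher (0.16, limma adjusted p = 0.0283).

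Of 13 other glutathione genes, none was higher in limma, also at an unadjusted p under 0.05, in edgeR or in DESeq2. *Glrx3*, a glutaredoxin that handles iron-sulfur clusters, was lower (-0.16, limma adjusted p = 0.0345, edgeR adjusted p = 0.0349) and not past the threshold in DESeq2 (adjusted p = 0.417), at 385 to 453 normalised reads in controls and 340.0 to 429.6 with vitC. None of the 3 genes for superoxide dismutases and catalase was called by limma, edgeR or DESeq2, and in limma 1 was higher and 1 lower at an unadjusted p under 0.05. Without 1 of the 4 cultures, the paired fit called 5 pathway genes (without culture 10), 10 (11), 8 (35B) and 8 (35C), and *Prdx6*, *Pgd*, *Abcc4* and *Bach1* were past the threshold in each of these fits, which none of the other 8 called genes was. Over all 14631 tested genes, 557 were called higher and 313 lower without culture 10, and 631 and 437 without 11. The numbers were 759 and 531 without 35B and 617 and 342 without 35C, against 931 and 650 with all 4 cultures.

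In primed hESCs there was 1 library per condition, so no test was possible and the intervals below cover counting error only. The hESC markers *POU5F1*, *SOX2*, *NANOG*, *LIN28A*, *DNMT3B* and *TDGF1* summed to 2216 RPM (reads scaled to the total gene reads of the library) in the control and 2235 with vitC. The 6 fibroblast markers summed to 1798 and 1675 RPM, mostly *COL1A1*, with *DCN* at 0 in both libraries. The 9 lineage markers summed to 1675 and 1621, mostly *NES*, with *FGF5* at 0 in both libraries. The lineage sum hides opposite differences. *PAX6* stood at 4.88 and 9.54 RPM (log2 ratio 0.97, interval 0.56 to 1.38). *FOXA2* had 7 and 35 reads (2.16, 0.97 to 3.58). *OTX2* (-0.22, -0.36 to -0.09) and *NES* (-0.05, -0.07 to -0.02) were lower with vitC. For *EOMES*, *GATA4*, *GATA6* and *SOX17* the interval held 0. What part the fibroblast and lineage transcripts had in the values below was not tested.

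None of the 10 genes was past a 1.5-fold difference in hESCs, where 9.34% of the 14769 genes with at least 20 reads were. The 10 genes had 169 to 13269 reads in a library. Ratios of genes near 20 reads vary more by counting error, so this share is not matched to them in depth. The log2 ratios of read share ran from -0.30 to 0.26, with a median of 0.01 against 0.02 over all these genes. *KEAP1* stood at 63.2 RPM in the control and 75.8 with vitC, a log2 ratio of 0.26 (95% interval 0.14 to 0.38). *GCLM* stood at 45.6 and 37.2 (log2 ratio -0.30, 95% interval -0.45 to -0.14), and *GSR* at 98.1 and 87.7 (-0.16, 95% interval -0.27 to -0.06). For these 3 genes the counting interval did not hold 0, as for 28.1% of the 14769 genes, and for the other 7 it did.

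The genes called in mESCs had no such interval in hESCs. *NQO1* stood at 75.4 RPM in the control and 75.6 with vitC (log2 ratio 0.0030, 95% interval -0.11 to 0.12), *GCLC* at 47.0 and 50.6 (0.10, -0.04 to 0.25) and *TXNRD1* at 281 and 283 (0.01, -0.05 to 0.07). The remaining log2 ratios were 0.03 for *NFE2L2*, -0.11 for *SRXN1* and 0.02 for *PRDX1*, whose reads may be shared with the pseudogene *PRDX1P1*. Exons of *NFE2L2*, *GCLC* and *SRXN1* each overlap those of another annotated gene on the same strand, so their counts are less certain. *HMOX1* had the fewest reads, 184 and 169, and a log2 ratio of -0.28 (95% interval -0.59 to 0.02). The difference between the species was not tested.

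**Figure D4:**
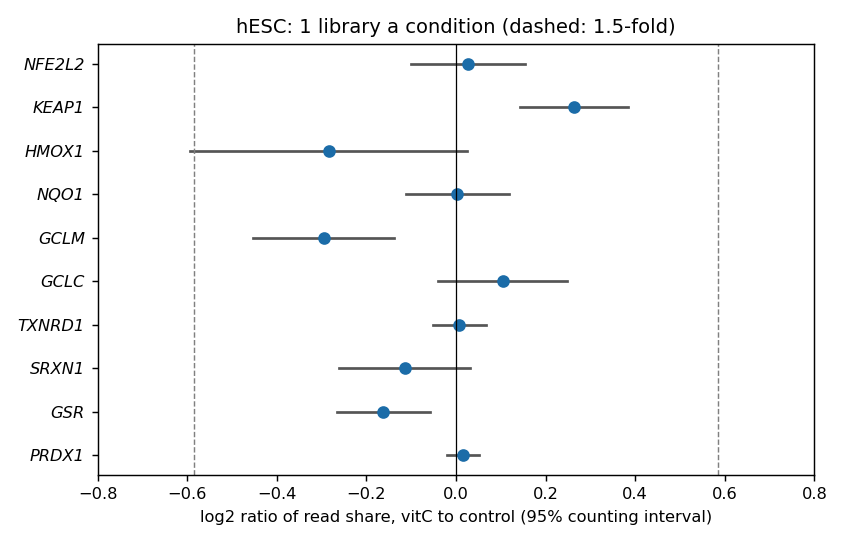
Log2 ratio of the share of gene reads, vitC-treated to control, of the 10 genes in hESCs (x axis), with 1 library per condition. Bars are 95% intervals for counting error, dashed lines mark 1.5-fold, and all 10 points lie between them, from -0.30 for *GCLM* to 0.26 for *KEAP1*.

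Of the other pathway genes in hESCs, the lowest ratios among those with at least 100 reads were of *GLRX2* (10.6 and 6.87 RPM, log2 ratio -0.63, 95% interval -0.98 to -0.28), *ABCC1* (-0.41) and the exporter *ABCC4* (-0.25). The highest were of *TXNRD3* (4.29 and 6.40 RPM, log2 ratio 0.58, 95% interval 0.12 to 1.04), the heme transporter *SLC48A1* (0.45) and *TXNIP*, a thioredoxin inhibitor (0.34). Of 60 pathway genes with at least 20 reads, 36 were above 0 and only *GLRX2*, which encodes a mitochondrial glutaredoxin, was past 1.5-fold. All 12 pathway genes called in the paired mESC fit were set beside their hESC ratios. Of those higher in mESCs, *ABCC4*, *PRDX6* (-0.12, 95% interval -0.18 to -0.06) and *PGD* (-0.09, -0.15 to -0.04) lay below 0 in hESCs. So did *FTH1* (-0.07, -0.10 to -0.05), *NFE2L1* (-0.04, -0.10 to 0.02) and *BACH1* (-0.03, -0.16 to 0.11). *TXNRD3*, *UGDH* (0.10, 0.0004 to 0.20), *MAFG* (0.05, -0.08 to 0.19) and *FTL* (0.0032, -0.03 to 0.04) lay above 0 in both. Scaled by size factors, however, *FTL* was at -0.01. Of the 2 lower in mESCs, *EPHX1* (-0.09, -0.27 to 0.09) lay below 0 in hESCs and *GLRX3* (0.05, -0.03 to 0.12) above. The intervals of *NFE2L1*, *BACH1*, *MAFG*, *FTL*, *EPHX1* and *GLRX3* held 0, so their direction in hESCs was not resolved.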

How the data were processed

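RNA-seq reads of 8 mESC and 2 hESC libraries were trimmed with Trim Galore and aligned with HISAT2 to mm10 or hg38, per the labels. Gene values were deposited by the authors after a variance-stabilising transformation, in log2-like units. For repeats, they deposited estimated counts, from which only the ribosomal share was taken, and 4 other columns of per-sample values were not used. Inverting the transformation gave whole reads (within 0.02) for 100% of the values above the lowest. Per the labels, directional libraries followed ribosomal depletion or mRNA isolation, without saying which was used for a sample. The study's methods name only ribosomal RNA depletion of total RNA. Use of strand in counting is not given in the sources used here.

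Samples were grouped by their labels. limma 3.58.1 (lmFit, eBayes with trend) was run in R 4.3.3 on these values, for genes that exceeded the table's minimum in 4 or more libraries, with Benjamini-Hochberg adjustment over all 14631 genes and a threshold of 0.05. The main design had no culture term, as the study's methods name none. The paired fit added the replicate number, which marks a shared culture label. Libraries with the same number deviated together from their groups, with correlations of 0.626 to 0.765 over genes. Libraries of different numbers were not compared, and the culture sets differed, so these values do not show that the label itself pairs the libraries. Recovered reads were tested with edgeR 4.0.16 (quasi-likelihood) and DESeq2 1.42.0. Ratios were computed with a pseudocount of 0.5 read and tested with scipy 1.17.1. hESC read shares have exact Clopper-Pearson limits at 95%, which describe counting error alone, since sequenced reads are not independent molecules, and the interval of a log2 ratio is the exact binomial one given both libraries' reads. RPKM used the exon union of the GENCODE annotation of GRCm38.

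Named genes were the 10 members, pathway genes called in the unpaired fit, the 10 largest of those called in the paired fit that moved the same way in 4 pairs, and the 3 largest hESC ratios in each direction. The members and lists were chosen with earlier results of these data known. Fits were also run on simulated reads in which libraries with the same number shared their means. Pairing was thus built in, and that run does not show which fit suits these data. DESeq2 and quantile normalization with the culture term, the interaction with it and leaving out pairs were added after seeing the data.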

Additional observations from a re-analysis of the deposited data

How the results depend on the processing

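Pairing decided the calls. Among the 10 genes, 0 were called in the unpaired fit and 3 with the replicate block in limma, edgeR and limma after quantile normalization, 2 in DESeq2 with the block, and 2 to 3 in the block fit without 1 pair. Of the pathway genes, 12 were called with the block in limma and in edgeR, 11 after quantile normalization, 4 in DESeq2, and 5 to 10 without 1 pair, and 1 with replicates 1 and 2 only and no block. Calls over all tested genes also fell, from 931 higher and 650 lower in limma with the block to 329 and 143 in DESeq2. Without 1 pair they ran from 557 and 313 (without replicate 1) to 759 and 531 (without replicate 3). *Keap1* turned from 0.01 to -0.0023 with quantile normalization, with or without the block, to -0.0301 in the block fit without replicate 2, to between -0.0391 and 0.0461 without 1 library, and to -0.0385 in replicates 3 and 4 only. *Gclm* lay between -0.0071 and 0.0945 without 1 library. The other 8 genes kept their direction in mESCs under every setting run, and the median over the 10 genes lay between 0.05 and 0.11. The cause of these changes was not tested. Unpaired, leaving out any library left 0 calls among the 10. On the deposited scale the hESC differences of *KEAP1* and *GCLM* were 0.09 and -0.09. Depth limits the hESC values of *HMOX1*, with 169 reads in 1 library, and the mESC values of *Ephx1* and *Txnrd3*.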
